A study of Sus scrofa with 8 samples.

Results

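Distal H3K4me3 peaks without H3K27ac were taken from ChIP-seq of pig embryonic fibroblasts (PEFs). A peak of H3K4me3 replicate 1 on chromosomes 1 to 18 and X counted as a member when it was narrower than 5 kb, overlapped a peak of H3K4me3 replicate 2 by at least 1 bp, overlapped no H3K27ac peak of either replicate, and lay more than 5 kb from every gene start (TSS) and more than 1 kb from every annotated transcript start in the RefSeq annotation of Sscrofa11.1. Of 37495 H3K4me3 peaks on these chromosomes, 19393 were far enough from starts, 19336 of those were under the width limit and 16648 of those were shared with replicate 2. Among these distal shared peaks, 3892 (23.4%) overlapped no H3K27ac peak and are the members, 10.4% of all H3K4me3 peaks. Without H3K4me3 replicate 1, where replicate 2 peaks need no partner, the count was 6326. A further 11755 (70.6%) overlapped H3K27ac in both replicates and 1001 (6.01%) in 1 replicate.

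The PEFs came from Large White pigs, from fetuses aged 35 days, were released with collagenase IV and were grown for 24 h with no treatment. H3K4me3 was precipitated with antibody ab8580, H3K27ac and CTCF were measured in the same kind of cells, and each had 2 replicates with 1 peak list each. How many fetuses were used, whether they were pooled and whether the replicates were separate cultures is not given in the labels, so the spread between replicates may be technical. There is 1 cell type and no treated group, and the comparisons are therefore between sets of peaks. All 13 fibroblast marker genes, among them COL1A1, VIM and PDGFRA, had peaks of both marks in all 4 histone lists within 1 kb of their start, whereas none of 11 markers of other cell types had H3K27ac in both replicates, and 4 of these 11 (EPCAM, KRT8, MYOD1 and NEUROD1) had H3K4me3 in both.

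H3K4me3 is a methyl mark that is laid down mostly at transcription start sites and at CpG-rich DNA, and H3K27ac is an acetyl mark of active promoters and enhancers. H3K4me3 without H3K27ac is known from CpG islands of developmental genes that are silent or poised, where it often occurs together with the Polycomb mark H3K27me3, which was not measured here. CTCF is a zinc finger protein that binds a long DNA motif and marks many boundaries and loop anchors of chromosome domains.

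The following 8 windows of 300 bases show the range of sequence under these peaks, from CpG-dense to CpG-poor. Each window is centred on the replicate 1 summit, comes from the Sscrofa11.1 assembly (plus strand, 5′ to 3′) and has every CpG dinucleotide in capitals. Windows that touch an exon were left out of the choice. The first 3 are, among the rest, those of highest mean fold enrichment of H3K4me3: chr2:137366441-137366740, 154.1 kb upstream of PITX1 in an intron of LOC110259486; chr15:124200058-124200357, 7.2 kb upstream of PAX3 and outside genes; and chr6:119719319-119719618, 15.9 kb upstream of C6H18orf21 and outside genes. The next 2 have the highest CpG content over the peak among such windows, chr11:77975633-77975932, 10 kb upstream of SOX1 and outside genes, and chr11:68765266-68765565 in an intron of CLYBL. The next 2 come from the members of highest CTCF enrichment, whose CTCF summits lie outside the windows, at 189 to 396 bp from the H3K4me3 summit: chr6:155550402-155550701, 16.4 kb upstream of C6H1orf168, and chr1:66784629-66784928, 72.2 kb downstream of the start of MCHR2, both outside genes. The last, chr5:32635787-32636086, lies 31.4 kb upstream of IL22, outside genes, and its peak stands at the members' median of CpG observed/expected. Its peak GC of 43.6% is below their median of 52.2%.
upstream of PITX1: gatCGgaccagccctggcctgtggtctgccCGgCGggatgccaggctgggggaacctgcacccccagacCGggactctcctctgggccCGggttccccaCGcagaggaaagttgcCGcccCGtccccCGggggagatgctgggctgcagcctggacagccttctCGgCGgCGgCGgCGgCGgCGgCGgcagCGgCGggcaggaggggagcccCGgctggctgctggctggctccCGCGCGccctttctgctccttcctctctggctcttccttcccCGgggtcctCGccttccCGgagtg
upstream of PAX3: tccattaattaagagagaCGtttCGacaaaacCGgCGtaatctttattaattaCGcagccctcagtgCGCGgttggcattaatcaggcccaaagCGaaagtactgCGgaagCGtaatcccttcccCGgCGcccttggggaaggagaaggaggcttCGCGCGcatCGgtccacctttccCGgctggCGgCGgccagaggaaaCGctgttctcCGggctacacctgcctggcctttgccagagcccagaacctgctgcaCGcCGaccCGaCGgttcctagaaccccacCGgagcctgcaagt
upstream of C6H18orf21: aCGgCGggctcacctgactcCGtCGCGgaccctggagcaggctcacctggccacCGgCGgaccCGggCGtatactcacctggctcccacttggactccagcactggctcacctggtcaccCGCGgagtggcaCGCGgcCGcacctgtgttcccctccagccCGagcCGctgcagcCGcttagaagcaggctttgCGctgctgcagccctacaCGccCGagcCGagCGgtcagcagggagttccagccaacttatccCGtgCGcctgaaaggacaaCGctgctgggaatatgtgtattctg
upstream of SOX1: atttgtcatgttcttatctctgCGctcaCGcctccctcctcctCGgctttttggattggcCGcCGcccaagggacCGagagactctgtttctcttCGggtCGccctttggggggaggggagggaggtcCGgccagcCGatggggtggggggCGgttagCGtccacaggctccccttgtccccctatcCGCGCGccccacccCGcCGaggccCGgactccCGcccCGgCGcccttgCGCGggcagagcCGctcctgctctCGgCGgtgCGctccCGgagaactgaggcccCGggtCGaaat
CLYBL intron: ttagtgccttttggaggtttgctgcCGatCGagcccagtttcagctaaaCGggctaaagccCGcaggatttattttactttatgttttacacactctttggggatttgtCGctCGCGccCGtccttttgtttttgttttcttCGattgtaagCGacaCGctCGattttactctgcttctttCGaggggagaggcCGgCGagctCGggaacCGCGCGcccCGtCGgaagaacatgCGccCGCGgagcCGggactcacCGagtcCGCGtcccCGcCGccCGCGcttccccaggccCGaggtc
upstream of C6H1orf168: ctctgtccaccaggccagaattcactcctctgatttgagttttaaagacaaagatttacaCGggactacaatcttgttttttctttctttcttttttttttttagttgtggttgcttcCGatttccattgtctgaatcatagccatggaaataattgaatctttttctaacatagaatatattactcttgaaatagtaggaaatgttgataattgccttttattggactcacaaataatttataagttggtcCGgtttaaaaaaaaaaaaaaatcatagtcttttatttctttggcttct
downstream of MCHR2: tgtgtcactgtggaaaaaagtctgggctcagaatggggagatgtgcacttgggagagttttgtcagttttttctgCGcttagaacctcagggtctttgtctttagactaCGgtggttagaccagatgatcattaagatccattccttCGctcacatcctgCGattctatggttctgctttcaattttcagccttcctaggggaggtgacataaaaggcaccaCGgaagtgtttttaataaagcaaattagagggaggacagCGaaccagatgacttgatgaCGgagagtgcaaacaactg
upstream of IL22: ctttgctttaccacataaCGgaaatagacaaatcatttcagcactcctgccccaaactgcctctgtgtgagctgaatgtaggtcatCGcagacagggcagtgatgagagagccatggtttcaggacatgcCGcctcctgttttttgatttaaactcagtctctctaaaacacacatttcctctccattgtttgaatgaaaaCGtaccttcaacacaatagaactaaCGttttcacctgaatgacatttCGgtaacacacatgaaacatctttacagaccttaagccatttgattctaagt
The windows hold 26, 26, 25, 30, 33, 3, 7 and 6 CpG dinucleotides in this order. The CpG-dense windows near PITX1, PAX3, C6H18orf21, SOX1 and CLYBL thus carry several times as many as the windows from the members of highest CTCF enrichment and the last window. That window is at the median of the observed/expected ratio and not of the number of CpG dinucleotides.

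The members were chosen by their H3K4me3 and H3K27ac peak calls, so fold enrichment, q-value and width are given as a description. Fold enrichment of H3K4me3 over the control had a median of 5.74 in replicate 1 and 5.30 in replicate 2, and the highest values were 60.1 and 51.8. The 10th percentiles were 3.37 and 3.31, and the 90th percentiles 16.4 and 11.4. Across members the replicates had a Spearman rank correlation of 0.743 over 3892 peaks of the same libraries, given as a description. Over all shared H3K4me3 peaks this correlation was 0.882. Replicate 1 was the higher of the pair in 65.4% of members and in 74.97% of all shared peaks. Of the members, 1006 (25.8%) reached the median fold of the whole list, 9.19. Distal peaks with H3K27ac were about as weak, with median folds of 5.38 and 5.597. A −log10 q-value of at least 5 was reached in both replicates by 2905 members, and a fold of at least 20 in both by 45. Member width had a median of 695 bp and ran from 322 to 4932 bp.

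**Figure D1:**
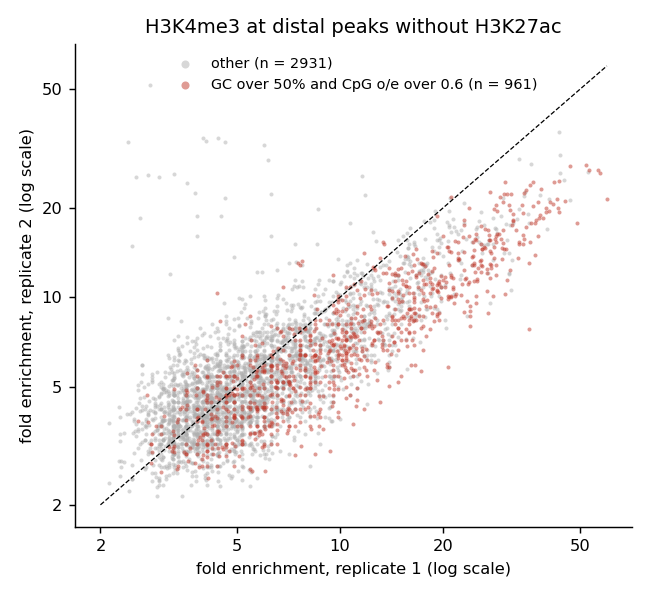
Fold enrichment of H3K4me3 over the control in replicate 1 (x axis) and replicate 2 (y axis), both on log scales, with 1 point per member and the dashed line marking equal values. The 961 members with GC over 50% and CpG observed/expected over 0.6 (red) have median folds of 9.59 and 6.59 against 5.19 and 4.99 for the others, and 22 members have a replicate 2 fold at least 3 times that of replicate 1.

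Some members shared their replicate 2 partner, which was the overlapped peak of highest fold. The 3892 members had 3855 different partners in replicate 2, and 72 members (1.85%) shared their partner with another member. In 22 members the partner had at least 3 times the fold of replicate 1. Those partners had a median width of 6344 bp against 505 bp for the members, and 19 of the 22 overlapped H3K27ac themselves, which shows wide replicate 2 peaks that reach beyond the member. Over all members, 56 partners (1.44%) overlapped H3K27ac.

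The thresholds passed close to some peaks. The widest members were 4932 and 4929 bp, and no peak failed by width alone. The nearest members to a gene start lay at 5003 and 5009 bp, and peaks at 4998 bp fell outside. For transcript starts the nearest members lay at 1031 and 1088 bp and the peaks just outside at 957 and 928 bp. The smallest gaps to an H3K27ac peak were 1 and 13 bp, and the smallest overlaps that kept a peak out were 21 and 24 bp, with 19 peaks overlapping by under 100 bp. In addition, 1001 distal peaks without H3K27ac had no partner in replicate 2, a number that is equal to that of the peaks with H3K27ac in 1 replicate by coincidence.

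Absence of a called H3K27ac peak is not absence of the mark, because the lists give neither counts nor depth per region. The gap from a member to the nearest H3K27ac peak had a median of 20.4 kb, with 97 members (2.49%) within 1 kb, 562 (14.4%) within 5 kb, 1159 (29.8%) within 10 kb and 2929 (75.3%) within 50 kb. At H3K4me3 peaks of gene starts without H3K27ac, a set of 1731 peaks, the median gap was 28.0 kb. Of that set 23.3% had an H3K27ac peak within 10 kb and 65.6% within 50 kb. Most peaks of both sets therefore had an H3K27ac peak within 50 kb that they did not touch. The shares for all H3K4me3 peaks and for positions at random were not computed, so the shares of members are a description.

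The members were richer in CpG than distal H3K4me3 peaks with H3K27ac. CpG observed/expected, the number of CpG dinucleotides over the number expected from the C and G content, had a median of 0.473 in members and 0.306 in distal peaks with H3K27ac. Computed on the replicate 2 partners the medians were 0.461 and 0.299. The partners overlap the same places of the same reference, so these values are not an independent replicate. Without H3K4me3 replicate 1, where replicate 2 peaks need no partner, the median of the members was 0.386. Peaks at gene starts without H3K27ac had a median of 0.694 and all H3K4me3 peaks of 0.471. The members thus lay between the distal peaks with H3K27ac and the gene starts, close to the list as a whole. Median GC content was 52.2% in members, 46.8% in distal peaks with H3K27ac and 62.4% at gene starts without H3K27ac. Peaks are not replicates of a condition, and no test was made across them. The sets come from the same libraries, and for values read in each of 2 libraries, such as CTCF, an exact two-sided test of the 2 pairs cannot go below p = 0.5, so no p is given.

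Sequence with GC over 50% and CpG observed/expected over 0.6, called CpG-rich here after the usual limits of a CpG island, was found in 961 members (24.7%, where 24.3% of all H3K4me3 peaks had it). The share was 6.92% in distal peaks with H3K27ac and 70.9% at gene starts without it. In members it rose with the H3K4me3 fold, divided into 4 bins, from 8.74% in the lowest bin to 14.9%, 24.2% and 50.9% in the highest. Distal peaks with H3K27ac, divided at the same fold values, had 1.02%, 1.77%, 3.29% and 23.7%. The order of the sets was the same in each of 4 bins of width, with 10.5% of members against 1.38% of distal peaks with H3K27ac in the narrowest bin and 47.6% against 13.0% in the widest. CpG-rich members had a median fold of 9.59 and 6.59 in the replicates, and the other members 5.19 and 4.99.

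**Figure D2:**
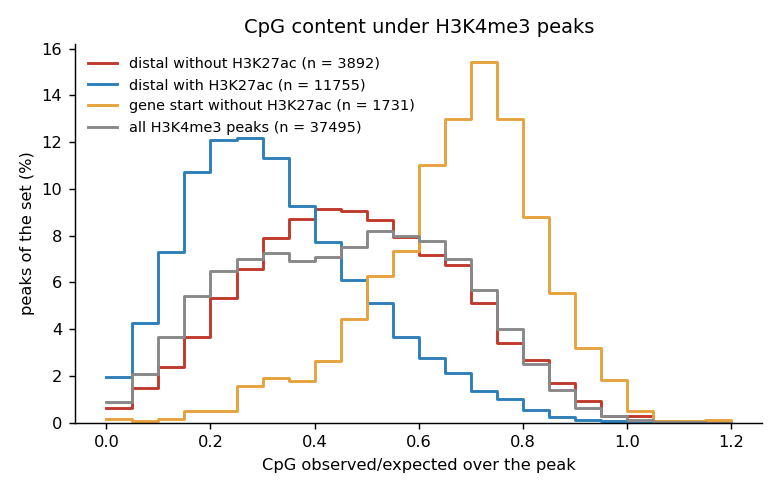
Share of peaks (y axis, percent of each set) by CpG observed/expected over the peak (x axis, bins of 0.05) for distal H3K4me3 peaks without H3K27ac, distal peaks with H3K27ac, gene starts without H3K27ac and all H3K4me3 peaks of replicate 1. The distal peaks without H3K27ac (median 0.473) lie between those with H3K27ac (0.306) and the gene starts without it (0.694).

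The 5 members of highest CpG content lay on 4 chromosomes. The first, on chromosome 15 (136068901 to 136069421), had CpG observed/expected of 1.20 with GC of 79.7%, overlapped an exon of ASB18 and lay 36.6 kb upstream of GBX2, a homeobox gene of the midbrain and hindbrain. Its fold was 8.47 in replicate 1 and 2.96 in replicate 2, so it was weak in the second library. The others overlapped an exon of NEURL1B (1.08, with folds of 10.6 and 6.74), lay near SOX1, a neural SOX factor (1.08, with 7.65 and 4.68), overlapped an exon of C6H19orf68 (1.06, with 4.64 and 5.42), or lay in the CLYBL intron (1.03, with 15.6 and 10.9). None of the 5 overlapped a CTCF peak.

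Repeats were no larger a part of the members than of the other distal peaks. Soft-masked bases had a 75th percentile of 17.3% in members and 21.6% in distal peaks with H3K27ac. When the 300 bp windows were aligned with each other, 4 members (0.103%) and 119 distal peaks with H3K27ac (1.01%) had a partner of at least 80% identity over at least 150 bp. The members were therefore nearly all different sequences. No member lay within 1 kb of an assembly gap, and neither did any other H3K4me3 peak (0%).

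Short motifs were counted in the 300 bp windows on both strands, as letters and not as bound sites, and a motif may overlap another. The AP-1 letters TGANTCA, the site of the FOS and JUN factors, were in 329 members (8.45%, against 8.7% of all H3K4me3 peaks) and in 14.7% of distal peaks with H3K27ac. The values on the replicate 2 list were 8.53% and 14.8%. AP-1 letters were less frequent in members in each of 4 bins of CpG content, with 14.9% against 17.5% in the lowest bin, 10.4% against 13.9%, 5.86% against 9.31%, and 2.67% against 3.78% in the highest. The GC box GGGCGG, bound by SP factors, was in 30.9% of members, 18.5% of distal peaks with H3K27ac and 37.2% of all peaks. Within the CpG bins the GC box did not keep this order: members had 6.78%, 22.3%, 37.4% and 57.1%, and distal peaks with H3K27ac 7.20%, 20.5%, 41.0% and 61.2%. The TEAD letters GGAATG were in 16.4% of members (against 14.7% of all peaks) and 18.3% of distal peaks with H3K27ac, the homeobox letters TAATTA in 5.94% (against 4.32%) and 6.79%, the GATA letters AGATAA in 10.8% (against 9.09%) and 13.9%, and the SOX letters ACAATGG in 2.93% (against 2.34%) and 3.14%. The TATA box TATAAA was in 11.2% (against 8.91%) and 15.3%, and the CCAAT box in 26.1% (against 23.1%) and 28.6%. The ETS letters CCGGAA were in 8.56% (against 10.7%) and 6.50%, and the E-box CACGTG in 6.78% (against 5.37%) and 4.53%. The CRE letters TGACGTCA were in 19 members (0.488%, against 0.299%) and the NRF1 letters GCATGCGC in 26 (0.668%, against 0.517%).

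CTCF, which the choice of members did not use, overlapped 892 members (22.9%, against 21.9% of all H3K4me3 peaks) in the first library. The second gave 931 members (23.9%, against 25.4%), and 871 members (22.4%, against 21.5%) had CTCF in both. The mean over the libraries was 23.4% ± 0.71 (SD, n = 2), so the members were near this background. The CTCF summit itself lay inside 698 members (17.9%, against 18.5%) and 715 members (18.4%, against 21.3%). Distal peaks with H3K27ac had 14.9% and 17.7%, or 16.3% ± 2.01 (SD, n = 2), below the members in both libraries. In the narrowest of the 4 width bins, members had 21.0% and 22.0%, against 8.10% and 9.32% of distal peaks with H3K27ac and 14.0% and 15.0% of all H3K4me3 peaks of that width. In the widest bin the values were 25.4% and 26.7% against 20.3% and 24.1%. The difference between the distal sets was thus larger in narrow peaks. It depended on CpG content as well: in the lowest CpG bin members had 19.2% and 19.9% against 9.76% and 12.2%, and in the highest the order turned, with 24.6% and 25.8% against 30.7% and 35.3%.

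**Figure D3:**
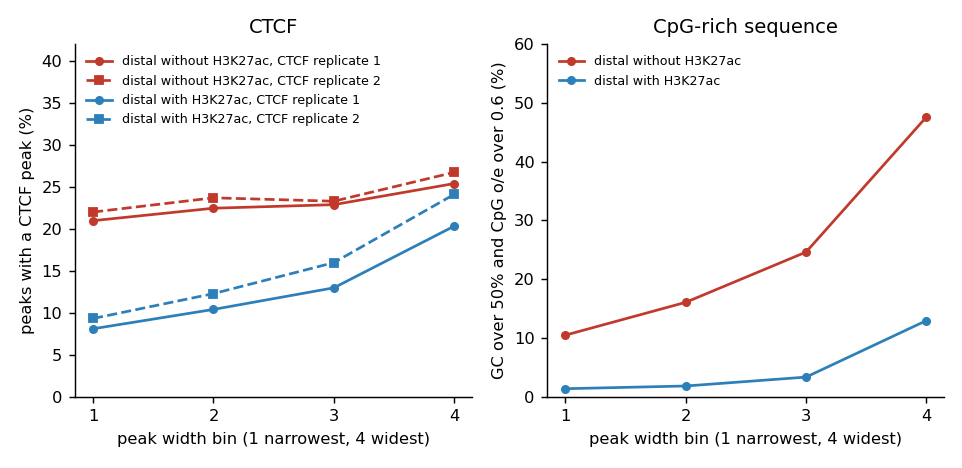
Share of peaks that overlap a CTCF peak (left, percent) and share with CpG-rich sequence (right, percent) in 4 bins of H3K4me3 peak width, cut at the members' quartiles, for distal peaks without and with H3K27ac, with a line for each CTCF replicate on the left. Members lie above distal peaks with H3K27ac in every bin, by most for CTCF in the narrowest bin (21.0% and 22.0% against 8.10% and 9.32%).

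CTCF overlap rose with the H3K4me3 fold of the members, from 11.8% and 13.2% in the lowest of the 4 fold bins to 35.6% and 36.7% in the highest. The other sets rose too. Distal peaks with H3K27ac went from 6.59% and 8.45% to 32.0% and 35.8%. All H3K4me3 peaks went from 9.02% and 10.5% to 31.0% and 36.0%, so the rise was not particular to the members. Where a CTCF peak was present, its fold had a median of 28.0 and 30.8 in members and of 22.7 and 23.8 in distal peaks with H3K27ac. The CTCF and H3K4me3 summits stood a median of 205 bp apart in members in both replicates, and 285 and 294 bp apart in distal peaks with H3K27ac, which were wider (median 887 bp). A distance within 150 bp was found in 25.8% and 26.0% of members with CTCF. The summits thus usually did not coincide. The letters AGNNGGCGC, a part of the CTCF motif, were in 288 of 3892 members (against 8% of all peaks) and in 3.07% of distal peaks with H3K27ac. They were in 11.4% of members with CTCF in both replicates and in 6.16% of members without CTCF.

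The 5 members of highest CTCF enrichment were 533 to 959 bp wide, with CpG observed/expected from 0.202 in the SCEL intron to 0.670 near DUSP23. The member upstream of C6H1orf168 (533 bp, CpG observed/expected 0.275) had CTCF folds of 81.5 and 98.0 with H3K4me3 folds of 6.28 and 6.90. The member downstream of the start of MCHR2, a receptor of melanin-concentrating hormone, was 568 bp wide and had CTCF folds of 83.8 and 94.3 with H3K4me3 folds of 7.84 and 9.70. The other 3 lay 12.4 kb upstream of EIF1 (CTCF folds of 76.7 and 100.3), in an intron of SCEL (81.5 and 92.8) and 12.2 kb downstream of the start of DUSP23 (78.9 and 84.2). In the SCEL intron the CTCF and H3K4me3 summits were 31 bp apart in both replicates, and in the other 4 members between 89 and 396 bp apart.

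Members lay outside genes more often than other distal H3K4me3 peaks. A gene span held 1760 members (45.2%, against 74.9% of all H3K4me3 peaks), and that of a protein-coding gene 1454 (37.4%, against 68%). The other 2132 (54.8%) were outside all gene spans, where 25.1% of all H3K4me3 peaks and 37.2% of distal peaks with H3K27ac were. An intron held 1234 members (31.7%, against 27.4% of all peaks) and 52.2% of distal peaks with H3K27ac, and 526 members (13.5%, against 47.4%) touched an exon, as did 10.6% of distal peaks with H3K27ac. A lncRNA gene held 304 members (7.81%, against 10.2%) and a pseudogene 12 (0.308%, against 0.472%), and a gene end lay within 5 kb of 512 (13.2%, against 22.7%). The rule set a distance from gene starts, which touches these shares. The 526 exonic members were more CpG-rich, with a median CpG observed/expected of 0.604 and CpG-rich sequence in 48.1%, than the 1234 intronic members, with 0.429 and 16.5%. They also had the higher H3K4me3 folds, with a replicate 2 median of 6.23 against 4.90. Members outside genes had 0.468 and 23.7%. Distal peaks with H3K27ac had the same order of exons over introns. Their exonic peaks had a median CpG observed/expected of 0.399 and CpG-rich sequence in 16.7%, against 0.280 and 3.37% for intronic peaks. Their replicate 2 folds had medians of 7.15 at exons and 5.28 in introns. The median distance to the nearest start of a protein-coding gene was 45.1 kb for members and 48.6 kb for distal peaks with H3K27ac.

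Along the chromosomes there were between 0.738 (X) and 2.79 (chromosome 12) members per Mb. Their share of the distal shared peaks ran from 17.0% on chromosome 13 to 34.2% on chromosome 11, and it was 30.9% on X. Gene density was 23.8 genes per Mb on chromosome 12, 7.06 on chromosome 11 and 8.84 on chromosome 13, so that chromosomes 11 and 13 differed in this share at a similar low gene density.

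A larger share of members than of distal peaks with H3K27ac was nearest to developmental transcription factor genes. The list of these genes held 258 genes of the homeobox, SOX, PAX, FOX, GATA, TBX and related families. For 347 members (8.92%, where 3.45% of all H3K4me3 peaks did so) the nearest protein-coding gene was on this list, against 319 distal peaks with H3K27ac (2.71%). H3K4me3 peaks at gene starts without H3K27ac had 108 such peaks (6.24%), so that this set was also above all H3K4me3 peaks and closer to the members. Positions whose nearest protein-coding gene is on the list make up 2.20% of the chromosomes. In the 4 bins of CpG content the shares were 2.98%, 6.68%, 8.63% and 17.4% in members and 2.35%, 2.08%, 3.63% and 6.17% in distal peaks with H3K27ac, so that the sets were close in CpG-poor sequence and apart in the other bins. Members with such a nearest gene had a median CpG observed/expected of 0.612 against 0.460 for the others, and 49.3% against 22.3% were CpG-rich. They lay a median of 31.4 kb from the gene start, 71 of them (20.5%) within 10 kb, and the distal peaks with H3K27ac 73.7 kb. The replicate 2 list gave 8.43% and 2.55%.

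Of the 258 genes, 136 were nearest to at least 1 member. The PAX genes, which pattern neural crest, muscle and kidney, had 29 members for 6 of 8 genes, and 8 distal peaks with H3K27ac. The NKX homeobox genes had 26 members for 12 of 14 genes against 3, the LHX genes 14 for all 7 genes against 1, the POU genes 26 for 8 of 15 against 8, and the IRX genes 20 for all 6 against 8. In these families members were the more frequent kind. The SOX genes had 42 members for 13 of 19 genes against 44, the FOX genes 42 for 17 of 43 against 76, and the TBX genes 16 for 7 of 13 against 17. Members were thus above 24.9% at the SOX, FOX and TBX genes as well. Early B-cell factor (EBF) genes had 2 members against 16, and NEUROD genes had no member. The HOX genes had 18 members at 7 of 36 genes, among them HOXA13 with 4, against 6 distal peaks with H3K27ac.

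**Figure D4:**
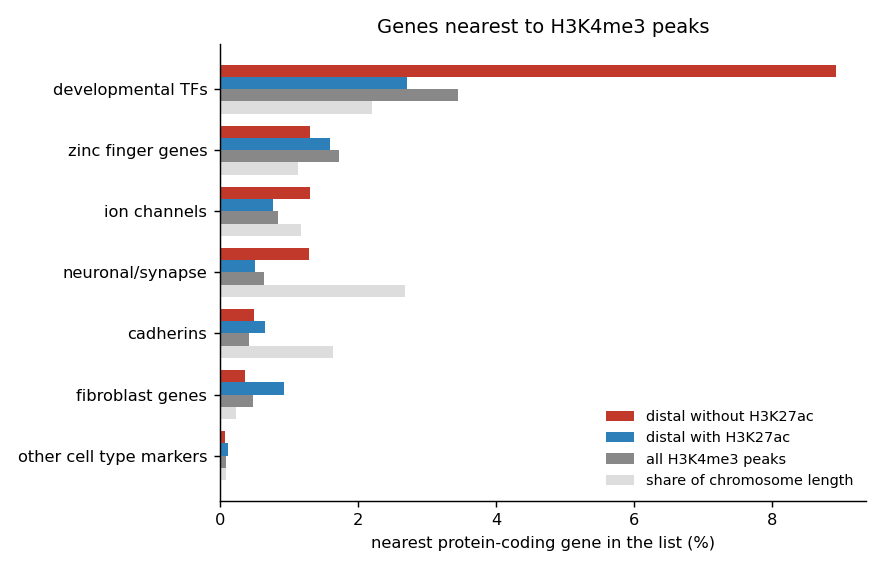
Percent of peaks whose nearest protein-coding gene is in each gene list (x axis) for distal H3K4me3 peaks without H3K27ac, distal peaks with H3K27ac and all H3K4me3 peaks, beside the percent of chromosome length nearest to those genes. Developmental transcription factors (TFs) stand out at 8.92% of the members against 2.71% and 3.45%, while fibroblast genes have 0.360% against 0.927%. Gene starts without H3K27ac, not drawn here, have 6.24% for developmental TFs.

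The other lists moved less. Fibroblast genes, such as those of collagens and their regulators, were nearest to 14 members (0.360%, against 0.483% of all H3K4me3 peaks) and to 109 distal peaks with H3K27ac (0.927%). No member lay inside a fibroblast gene, and 46 (0.391%) of the more numerous distal peaks with H3K27ac did. This share was not computed for all H3K4me3 peaks. Of those 14 members 4 were nearest to TBX18 and 2 to TWIST2, which are on the developmental list too, and 3 to TCF21. COL1A2, a chain of type I collagen, had 1 member, at 161.5 kb, and 12 distal peaks with H3K27ac. Genes of neuronal adhesion and synapses had 50 members (1.28%, against 0.64%), and 0.510% of distal peaks with H3K27ac, but 2.68% of chromosome length. Ion channel genes, listed by their SCN, CACNA and KCN symbols and so not only voltage-gated, had 51 (1.31%, against 0.843%) and 0.774%. They were the nearest genes of 1.18% of chromosome length. At gene starts without H3K27ac the shares of the synapse and ion channel lists were 2.60% and 2.72%, above those of the members. Zinc finger genes had 51 (1.31%, against 1.73%) and 188 distal peaks with H3K27ac, and cadherin genes 19 (0.488%, against 0.421%) and 0.655%. Markers of endothelial, blood, epithelial, liver and muscle cells had 3 members (0.0771%, against 0.0853%), 1 each at CDH5, KDR and MYOG. The 1 olfactory receptor gene matched was nearest to no H3K4me3 peak (0%).

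The starts of the genes next to members had H3K4me3 alone in a larger share than those next to distal peaks with H3K27ac. The nearest protein-coding gene had both marks within 1 kb of its start in both replicates for 50.2% of members, H3K4me3 in both replicates with no H3K27ac for 20.1%, and no H3K4me3 for 25.3%. For distal peaks with H3K27ac the first 2 shares were 73.8% and 5.27%, and for all protein-coding genes the 3 shares were 58.9%, 8.26% and 29.7%. The shares of members and distal peaks count a gene once for each of its peaks. Those of all protein-coding genes count each gene once, so the units differ. The remaining genes had a mark in 1 replicate. For the gene that held the member the shares of both marks and of H3K4me3 alone were 36.2% and 30.7%, against 76.0% and 5.64%. Of the 136 developmental genes next to members, 64 (47.1%) had H3K4me3 alone at the start, 50 (36.8%) both marks and 14 (10.3%) no H3K4me3. All 8 fibroblast genes next to members had both marks. H3K4me3 and H3K27ac at the gene start and at the member come from the same lists.

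The 6 members of highest fold lay on 6 chromosomes. A member of 2023 bp in an exon of ADAM11 on chromosome 12 (18581041 to 18583063) had H3K4me3 folds of 56.5 and 26.9, with CTCF folds of 38.6 and 38.0, and a gap of 2218 bp to H3K27ac. A member of 1464 bp in an exon of DLEC1 on chromosome 13 (22882736 to 22884199) had folds of 57.1 and 26.2 and no CTCF peak. The member upstream of PITX1, a homeobox gene of the hindlimb, had 60.1 and 21.3, a gap of 158820 bp to H3K27ac and CTCF folds of 19.8 and 27.7. The member 7.2 kb upstream of PAX3, a regulator of neural crest and muscle precursors, was 2152 bp wide, had 53.3 and 26.9 and no CTCF peak, and was 107062 bp from H3K27ac. The member upstream of C6H18orf21 had 52.3 and 27.7 with CTCF folds of 30.1 and 34.3, and the member in an intron of LOC110261732, 562.1 kb from the start of VRK1, had 43.4 and 36.0. Of these 6, all but the last were CpG-rich. Replicate 1 gave the higher fold in all 6.

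The 5 widest members included peaks near developmental genes. A member of 4017 bp overlapped an exon of SHH, the sonic hedgehog ligand, 7.0 kb from its start, with folds of 22.1 and 13.3 and CpG observed/expected of 0.826. A member of 4887 bp lay 6.0 kb upstream of BARHL2, a homeobox gene of the retina and spinal cord, with folds of 27.3 and 15.5. The widest, 4932 bp, lay 28.3 kb from the start of NCR2 with 22.9 and 17.5. The next, of 4929 bp, lay 196.1 kb from the start of MEF2C, a muscle and neural factor, with 27.4 and 22.5 and CTCF folds of 56.3 and 58.5. A member of 4276 bp lay in an intron of LOC110257237 with 20.9 and 21.6.

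Most members stood alone: 84.3% had no other member within 10 kb, against 69.3% of the more numerous distal peaks with H3K27ac. Runs of at least 3 members numbered 46 and held 157 members. The largest was at OTP, a homeobox gene of the hypothalamus, with 6 members over 9231 bp, 5 in introns and 1 in an exon. Their replicate 1 folds were 5.19, 5.74, 8.29, 4.92, 3.26 and 13.9. Their partners, the overlapped replicate 2 peaks of highest fold, were 2 wider peaks with folds of 6.29 and 5.01. The member with a fold of 4.92 also overlapped a narrow replicate 2 peak with a fold of 3.05. Replicate 2 thus held the same stretch as fewer peaks, most of them wider. The annotated start of OTP, 22.0 kb from the nearest of them, had no H3K4me3 peak, and no H3K27ac peak lay within 99622 bp of the run. At the other end of OTP lay an H3K4me3 peak that is no member, with folds of 41.7 and 17.2. In replicate 1 it stood 35.8 to 37.9 kb from the OTP start. The nearest annotated start of any gene lay 8191 bp from the run. Runs of 5 members were nearest to EVX1 and HOXA13, in TFAP2B, in BCL11B and near EMSY. CpG observed/expected over these runs had medians of 0.762 at EVX1 and HOXA13, 0.669 in TFAP2B, 0.556 in BCL11B and 0.505 near EMSY.

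SOX2, a pluripotency and neural factor, and PAX2, a kidney and eye factor, each had 8 members nearest to them. The members around SOX2 lay from 16.4 kb upstream to 22.8 kb downstream of its start, with replicate 1 folds of 18.7, 3.55, 10.4, 5.51, 10.4, 2.90, 15.8 and 15.2 and replicate 2 folds of 10.7, 5.09, 8.28, 5.69, 4.99, 3.67, 12.0 and 11.4. Of these, 5 were CpG-rich and 2 overlapped CTCF in both replicates, and SOX2 had no distal peak with H3K27ac nearest to it. At the SOX2 start an H3K4me3 peak was present in both replicates and an H3K27ac peak in replicate 2 with a fold of 2.77. The members of PAX2 lay from 66.6 kb upstream to 13.5 kb downstream of its start, 7 were CpG-rich, and the strongest, 3609 bp wide in an exon, had folds of 34.3 and 15.7. The start of PAX2 had H3K4me3 without H3K27ac. SOX9, a cartilage and testis factor, had the most members of the developmental genes, 10, at 30.6 to 779.7 kb, with 6 distal peaks with H3K27ac. None of the SOX9 members was CpG-rich, and its start had both marks. IRX1 and POU3F3 had 8 members each, and FOXD2 and PAX3 had 7 each.

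**Figure D5:**
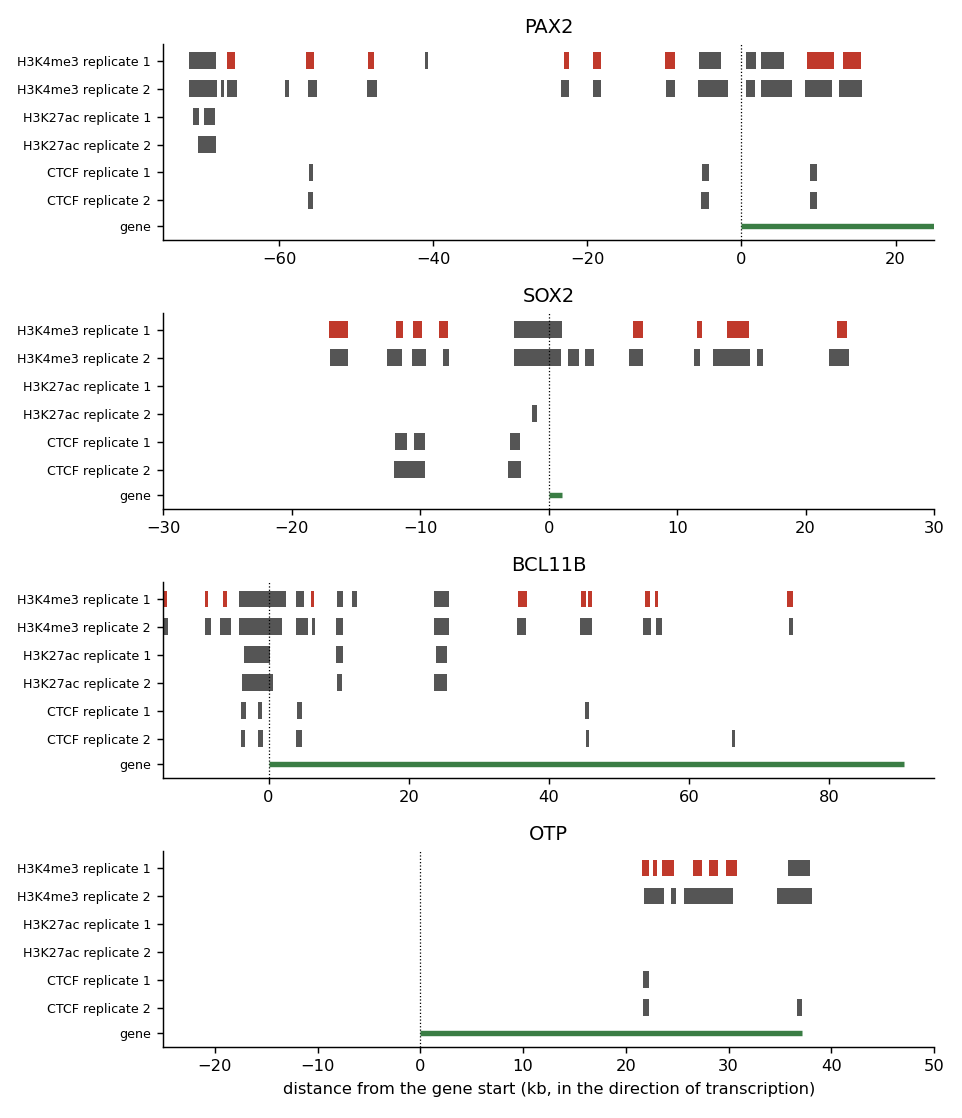
Peaks of H3K4me3, H3K27ac and CTCF in each replicate (rows) around the starts of PAX2, SOX2, BCL11B and OTP, genes chosen after their values were seen, by distance from the start in kb (x axis, in the direction of transcription), with the members in red, other peaks in grey and the gene span in green. The windows hold from 0 (OTP) to 3 (BCL11B) H3K27ac peaks in each replicate. Members overlap none by the rule, and the density of H3K27ac peaks over the chromosomes was not computed. The 6 members of OTP face fewer replicate 2 peaks, most of them wider.

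The genes that held the most members in their span had 5 to 7 each. RNF220, a ubiquitin ligase, held 7 intronic members with replicate 1 folds from 2.96 to 27.6 and replicate 2 folds from 2.64 to 14.1, and 1 distal peak with H3K27ac. PRDM16, a regulator of brown fat and blood stem cells, held 7 intronic members with folds of 3.16 to 11.5 and 3.57 to 6.86, and no distal peak with H3K27ac, although its start had both marks. BCL11B, a T cell and neuron factor, held 7 with folds of 3.51 to 16.7 and 3.02 to 13.5, on 6 peaks of replicate 2, and 2 distal peaks with H3K27ac. ESRRG, an orphan nuclear receptor, held 6 over a span of 660.8 kb, none CpG-rich, and 3 distal peaks with H3K27ac. SPTBN4, a spectrin of axons, held 5, all touching exons, with replicate 1 folds of 19.4, 18.7, 11.6, 5.74 and 16.4 and replicate 2 folds of 8.89, 8.32, 6.74, 4.14 and 8.88, and CpG-rich in 4. PAX3 held 5 with 4 different partners in replicate 2, and 1 of these members had a fold of 3.82 in replicate 1 against 18.8 for a wide partner in replicate 2. OTP held 6, and SPATA13 and SPECC1 held 5 each, at maximum replicate 1 folds of 28.1 and 30.2, beside 1 and 4 distal peaks with H3K27ac. OTP, SPTBN4 and PAX3 held no distal peak with H3K27ac. At the start, RNF220, ESRRG, SPTBN4, SPECC1 and PAX3 had H3K4me3 without H3K27ac, PRDM16 and BCL11B both marks, and OTP and SPATA13 no H3K4me3. Whether transcript starts that the annotation lacks lie under any of the members was not tested.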

How the data were processed

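ChIP-seq of H3K4me3, H3K27ac and CTCF in PEFs gave 6 peak lists, with 2 replicates each, and 2 input samples with no list used here. Per the labels and methods, the authors mapped reads with Bowtie2 to Sscrofa11.1, discarded duplicate reads, and ran MACS2 for narrow peaks on every library. The deposited lists hold for every peak a whole-number score, an enrichment over control as a fold ratio, and the p-value and q-value as −log10. The methods name a q-value of 0.01, and the highest q-value in the lists was 0.0432 to 0.0499. The lists were used as deposited, 42 members had a q-value above 0.01 in replicate 1 and 36 partners in replicate 2. The lists hold no counts, so depth is unknown and no counting interval is given. The lists held 37932 and 43516 H3K4me3, 74983 and 81164 H3K27ac, and 40289 and 44682 CTCF peaks.

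Members were matched by overlap of at least 1 bp, and a member took the values of its partner. The partner was the peak of highest fold among the replicate 2 peaks that the member overlapped, a choice that favours high replicate 2 folds. Genes came from RefSeq release 106 of Sscrofa11.1 (28077 genes, 19487 protein-coding, 76254 transcript starts). The nearest gene was taken from the replicate 1 summit to protein-coding starts. GC and CpG were computed from the reference over each peak, masked bases from its lower-case letters, and windows of 300 bp were aligned with blastn 2.17.0. Python 3.11.15, pandas 2.3.3, numpy 2.4.6, pysam 0.24.0 and samtools 1.23.1 were used. Bins were cut at the members' quartiles. The comparisons were descriptive, with no test across peaks.

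Named regions were the 6 members of highest mean fold, the 5 widest, the 5 of highest CpG observed/expected with GC over 50%, the 5 of highest CTCF fold with CTCF in both replicates and those at each threshold. Named genes were the 10 whose span held most members (ties by mean fold), the nearest genes of named regions, and genes of the lists, of which those with most members, the runs and the families were chosen after their values were seen. A gene that the rule names is not reported here. Members and lists were chosen with earlier results of these data known. Of 30 fibroblast symbols 26 were found, and the olfactory receptor list matched 1 gene, with 0 members, and was not used. Overlap, distance, CpG and motif functions were tested on simulated data. The alternatives tried were −log10 q-values no lower than 5, 50% reciprocal overlap, no H3K27ac within 1 kb, 10 kb from starts, protein-coding starts, no width limit, the replicate 2 list, leaving out each library, other CTCF, CpG and gene measures, and 1 added after the values were seen, a partner without H3K27ac.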

Additional observations from a re-analysis of the deposited data

Results flagged for a closer look

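H3K4me3 peaks outside chromosomes 1 to 18 and X entered no comparison, and they held peaks of the same kind, counted without the conditions on distance and width. Chromosome Y had 6 peaks, 5 shared with replicate 2, and 1 of those overlapped no H3K27ac peak. Unplaced scaffolds had 431 peaks, 387 shared, and 110 of those (28.4%) overlapped no H3K27ac peak.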

How the results depend on the processing

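No paired analysis was possible because the results come from no test, and the CTCF shares are given within each library. The number of members stayed within 1.5 times 3892 in 11 of 12 alternatives, and leaving out each library gave 4263 to 6326, the highest without H3K4me3 replicate 1. The share with CTCF was 26.8% at −log10 q of at least 5, 25.01% with 50% reciprocal overlap, 22.5% at 10 kb from starts, 18.2% for CTCF summits inside, and 18.1% to 23.9% without each library in turn. Median CpG observed/expected was 0.486 at that q, 0.455 at 10 kb, 0.485 with protein-coding starts, 0.460 on the replicate 2 list, 0.509 in the 300 bp window and 0.386 to 0.468 without each library. The share inside a gene was 45.6% at that q and with reciprocal overlap, 45.2% with no H3K27ac within 1 kb, 44.4% at 10 kb, 50% with protein-coding starts, 45.3% on the replicate 2 list, 13.5% for exons, 37.4% for protein-coding genes and 46.0% to 47.0% without each library. It was 45.2% where the partner also had no H3K27ac, an alternative chosen after seeing the data. The cause of these shifts was not tested. Members kept the larger CTCF share, CpG content and developmental gene share and the smaller share inside genes against distal peaks with H3K27ac at that q, with reciprocal overlap, at 10 kb and on the replicate 2 list. The share nearest to a developmental gene ran from 7.19% to 9.04% over 12 alternatives. Without counts, a weak H3K27ac signal below the caller's threshold cannot be seen, and 2 libraries a mark limit the error estimate.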
